A study of Mus musculus with 4 samples.

Results

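Brown fat is a tissue that burns fuel to make heat, and its thermogenic genes were read here in 2 regions of the mouse left hemi-diaphragm. The genes were chosen by name: Ucp1, Ucp2, Ucp3, Cidea, Elovl3, Ppargc1a, Dio2, Prdm16 and Adrb3. In the array annotation used, 7 of these 9 genes had probe sets, 17 of the 45101 on the array. Ucp2 and Adrb3 were not analysed here. RNA had been measured on 1-colour oligonucleotide arrays, 2 of the synaptic region, where the motor nerve meets the muscle fibres, and 2 of the non-synaptic region. Strain, age, sex and treatment of the mice are not given in the labels used here, nor is it said whether animals were pooled or whether each array stands for its own animal. The p-values therefore cover array-to-array variation alone, and that may be technical.

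In a brown fat cell, noradrenaline from sympathetic nerves acts on beta-adrenergic receptors and raises cyclic AMP. Fat is then broken down, and the fatty acids open UCP1, a carrier of the inner mitochondrial membrane that lets protons back in without making ATP, so that the energy leaves as heat. PRDM16 sets up the identity of these cells, PGC-1alpha (encoded by Ppargc1a) drives mitochondrial genes, and the type 2 deiodinase (Dio2) makes active thyroid hormone inside the cell. Skeletal muscle also makes heat, and it uses some of the same genes, among them Ppargc1a and Ucp3.

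Ucp1, Dio2 and Ppargc1a are known to respond to cyclic AMP, and Ucp3 is known as a target of nuclear receptors that sense fatty acids. The 250 bases before the start of these 4 genes are shown for that reason. They are from RefSeq, assembly GRCm38.p6, printed 5′ to 3′ on the gene's strand. Capitals mark TGACG or its reverse complement CGTCA, the core of the cyclic AMP response element, TATANA on the printed strand, the form of a TATA box, and AGGTCA or its reverse complement, the half-site of nuclear receptors, and neighbouring or overlapping matches run together in 1 block of capitals.
Ucp1, chr8:83290098-83290347, strand plus: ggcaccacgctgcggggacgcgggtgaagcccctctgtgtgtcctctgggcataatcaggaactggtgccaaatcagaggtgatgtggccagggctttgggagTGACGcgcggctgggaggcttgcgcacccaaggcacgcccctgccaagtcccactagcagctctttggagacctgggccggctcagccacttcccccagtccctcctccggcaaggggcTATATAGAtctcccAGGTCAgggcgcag
Dio2, chr12:90739039-90739288, strand minus: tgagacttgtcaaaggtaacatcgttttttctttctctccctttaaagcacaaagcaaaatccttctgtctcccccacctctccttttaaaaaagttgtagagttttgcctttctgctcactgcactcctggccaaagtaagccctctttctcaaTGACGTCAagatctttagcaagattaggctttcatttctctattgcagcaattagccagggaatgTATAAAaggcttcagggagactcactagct
Ppargc1a, chr5:51567726-51567975, strand minus: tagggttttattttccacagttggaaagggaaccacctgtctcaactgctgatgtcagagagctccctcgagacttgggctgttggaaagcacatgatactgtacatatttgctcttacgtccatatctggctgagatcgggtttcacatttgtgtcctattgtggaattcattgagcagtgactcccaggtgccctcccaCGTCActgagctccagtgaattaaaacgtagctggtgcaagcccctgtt
Ucp3, chr7:100472741-100472990, strand plus: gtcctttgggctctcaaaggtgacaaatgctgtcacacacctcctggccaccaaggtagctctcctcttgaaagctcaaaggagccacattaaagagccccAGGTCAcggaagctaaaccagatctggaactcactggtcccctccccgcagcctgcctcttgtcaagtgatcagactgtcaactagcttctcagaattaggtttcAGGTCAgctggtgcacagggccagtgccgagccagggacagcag

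Over the same 250 bases of 32851 promoters in the table, 17.8% held TGACG on either strand, 16.4% held TATANA on the printed strand and 14% held AGGTCA on either strand. The Ucp1 window held TGACG from 147 to 143 bases before the start, overlapping matches to TATANA from 28 to 21 bases before it, and AGGTCA from 14 to 9 bases before it. In Dio2 the 2 matches to TGACG and its reverse complement overlapped and formed the full palindrome TGACGTCA from 95 to 88 bases before the start, which 1.55% of the promoters held. Ppargc1a had 1 match to TGACG, as CGTCA, and Ucp3 had 2 matches to AGGTCA. The same window of Prdm16 held none of the 3 motifs and is not printed, which says only that these letters are not there. A match is a run of letters and not a measured binding site.

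The values are intensities on a linear scale. Any value under 158.891, the 20th percentile over the 4 arrays, was set to that floor before log2 was taken, so the lowest log2 value is 7.31. Where both arrays of a region are at this floor, the difference is given as a bound. Probe sets with a mean log2 value under 8.87 were left out of the limma fit, which held 26480 probe sets. The floor held 18.7% to 21.3% of the probe sets of an array, and the median absolute log2 difference was 0.327 between the synaptic arrays and 0.283 between the non-synaptic arrays. Between the regions it was smaller for arrays of the same replicate number, at 0.204 for replicate 1 and 0.17 for replicate 2. The smallest p that an exact permutation test of 2 arrays against 2 can give is 0.333, so limma was used. Of the 17 thermogenic probe sets 16 were in the fit. Ucp1 passed the filter through its non-synaptic arrays alone. Prdm16 1429309_at and Dio2 1426081_a_at also had synaptic mean log2 values under the filter, at 8.79 and 8.81, and passed it through their non-synaptic arrays.

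Ucp1 stood apart from the other thermogenic genes. It was at the floor in the synaptic region and clearly measured in the non-synaptic region, Cidea had lower values in the synaptic region by a smaller amount, and the probe sets of Ppargc1a, Ucp3, Prdm16, Dio2 and Elovl3 in the fit had log2 differences from -0.66 to 0.42. By limma with Benjamini-Hochberg adjustment over all probe sets, 0 of the 16 thermogenic probe sets were called higher and 0 called lower, against a background of 0.00378% called higher and 0.00755% called lower. At an unadjusted limma p under 0.05 there were 0 higher and 1 lower, and that one was Ucp1, whose synaptic values were both set to the floor, so that its p rests on a spread fixed in part by the floor and supports nothing here. The background at this threshold was 0.653% higher and 0.332% lower. Both synaptic arrays lay below both non-synaptic arrays for 6 of the 16 probe sets, against 9.98% of all probe sets tested, and above both for 2 of the 16, against 9.89%. Of those 6 probe sets 2 read the same gene, Ppargc1a, so they are not independent of each other. Ucp1 and Prdm16 1429309_at are also among the 6, with synaptic mean log2 values of 7.31 and 8.79. These are under the filter of 8.87, which they passed through their non-synaptic arrays. The count of 6 is thus fixed in part by the filter and supports nothing here. The median difference over the 16 probe sets was -0.24, against -0.01 over all probe sets tested. This median includes the same probe sets, so it too is fixed in part by the filter.

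**Figure D1:**
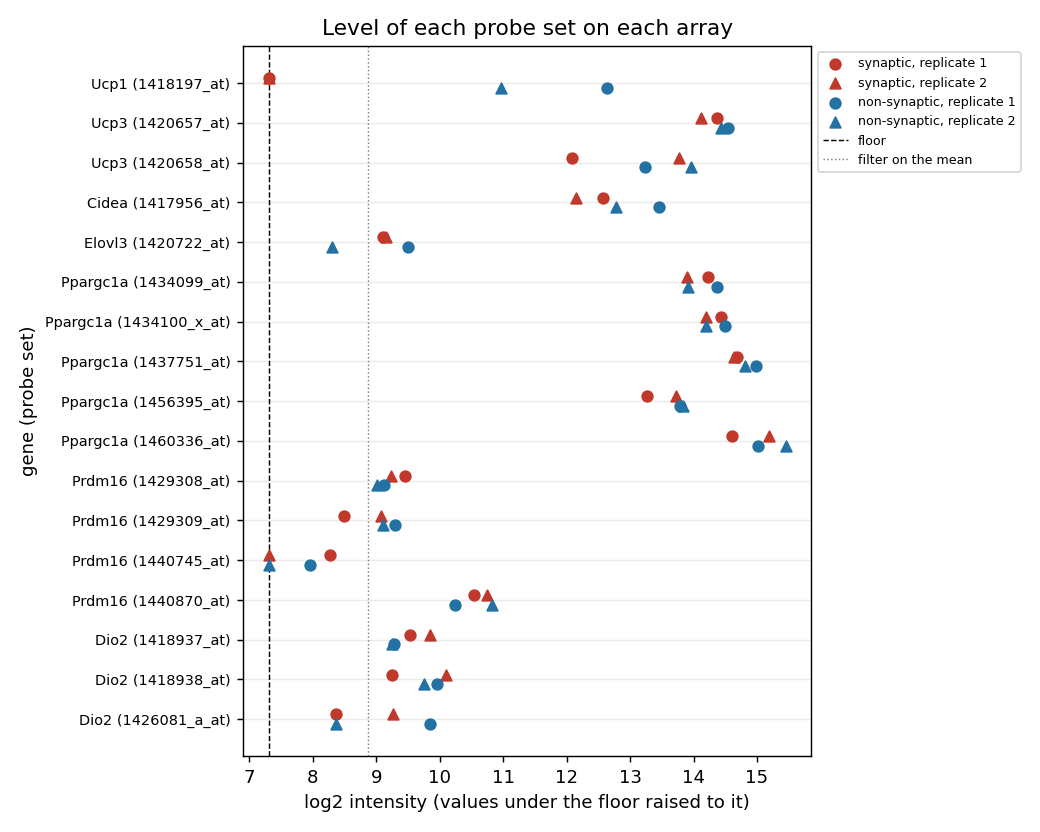
Level of each of the 17 thermogenic probe sets on each of the 4 arrays, as log2 intensity on the horizontal axis; red marks are synaptic and blue marks non-synaptic arrays, circles replicate 1 and triangles replicate 2, the dashed line is the floor of 7.31 and the dotted line the filter of 8.87 on the mean. Both synaptic marks of Ucp1 lie on the floor while its non-synaptic marks are at 12.63 and 10.96, and for most other probe sets the marks of the regions lie close together or mixed.

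Ucp1 encodes the uncoupling protein that defines brown and beige fat cells. Its probe set, 1418197_at, had intensities of 122 and 54.6 on the synaptic arrays and 6332 and 1985 on the non-synaptic arrays. Both synaptic values were under the floor and neither region overlapped the other. Against the floor, Ucp1 was at least 22.3-fold lower in the synaptic region. The bound was 39.8-fold from replicate 1 of the non-synaptic region alone and 12.5-fold from replicate 2 alone, and it was 7.57-fold over a floor at the 40th percentile. On the log2 scale the fitted difference was -4.48 (n = 2 arrays per region) and did not pass (limma adjusted p = 0.492). Both synaptic values were set to the floor before the fit, so that the spread within that region was 0 by construction and the size moves with the floor, to -5.44 with it at the 5th percentile and -2.92 at the 40th. In bulk RNA, fewer cells of a type and less RNA per cell cannot be told apart.

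The non-synaptic arrays differed from each other in Ucp1 by 3.19-fold, or 1.67 on the log2 scale. Only 1.44% of the probe sets tested were at least that far apart between these arrays. Cidea was 1.59-fold and Elovl3 2.27-fold higher on the same array, replicate 1. Cidea was also the higher on replicate 1 of the synaptic region, at 6074 against 4540. The other thermogenic probe sets went both ways between the non-synaptic arrays. Dio2 1426081_a_at was 2.8-fold higher on replicate 1. Ppargc1a 1460336_at, Ucp3 1420658_at and Prdm16 1440870_at were lower on that array, with ratios to replicate 2 of 0.734, 0.604 and 0.669. Adipoq, the fat cell hormone adiponectin, was 1.25-fold higher on that array, with intensities of 9045 and 7243, and Pck1, an enzyme that makes the glycerol backbone of fat, was at 2656 and 3053. So the ratio between the arrays was larger in Ucp1 than in Adipoq or in this probe set of Pck1. Other adipocyte markers had ratios of replicate 1 to replicate 2 near that of Cidea, with 1.86 in Lipe, 1.8 in Pnpla2 and 1.53 in Dgat2. Scd1, Car3 and Pck1 1439617_s_at were lower on replicate 1, with ratios of 0.697, 0.694 and 0.536. The ratios of Ucp1 and Elovl3 were above those of these markers, and that of Cidea lay among them. Lipe, Pnpla2 and Dgat2 were also higher on replicate 1 of the synaptic region, with ratios of replicate 2 to replicate 1 of 0.522, 0.481 and 0.567. Whether brown fat genes and general fat cell genes differ in this ratio was not tested, as there is 1 array on each side.

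Cidea encodes a lipid droplet protein that is abundant in brown fat. Its probe set had intensities of 6074 and 4540 on the synaptic arrays, a mean of 5307 ± 1085 (SD, n = 2), and of 11161 and 7012 on the non-synaptic arrays, a mean of 9086 ± 2934 (SD, n = 2). Both synaptic arrays lay below both others, and both lay far above the floor, unlike those of Ucp1. The difference was -0.75 ± 0.30 (SE) and did not pass (limma adjusted p = 1, unadjusted p = 0.0536). The lower non-synaptic array, at 7012, was nearer to the upper synaptic array, at 6074, than to the other non-synaptic array. Those 2 arrays have different replicate numbers. Between arrays of the same number the log2 differences were -0.88 and -0.63, though the titles do not say that the numbers pair the arrays.

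Elovl3 encodes an elongase of very long chain fatty acids that is induced in brown fat by cold. Its intensities were 551 and 570 on the synaptic arrays and 723 and 318 on the non-synaptic arrays. The synaptic arrays lay between the non-synaptic ones, so the regions overlapped. The difference was 0.23 ± 0.50 (SE, limma adjusted p = 1), and its sign turned when non-synaptic replicate 2 was left out and with a floor at the 40th percentile. The gap of 1.19 on the log2 scale between the non-synaptic arrays was matched or passed by 4.26% of probe sets tested.

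Ucp3 encodes a relative of UCP1 that is found mainly in skeletal muscle and brown fat, where it is linked to fatty acid use. Its probe set 1420657_at had intensities of 21181 and 17732 on the synaptic arrays and 23818 and 22157 on the non-synaptic arrays. The regions did not overlap, with a difference of -0.25 ± 0.17 (SE, limma adjusted p = 1). The other probe set, 1420658_at, was at 4355 and 13949 on the synaptic arrays and at 9596 and 15882 on the non-synaptic arrays. Here replicate 1 of each region was the lower array, the regions overlapped, and the difference was -0.66 ± 0.59 (SE, limma adjusted p = 1). Without replicate 1 of the synaptic region its sign turned. Its 2 synaptic arrays were 1.68 apart on the log2 scale, a gap that 3.36% of probe sets tested matched or passed, whereas those of the first probe set were 0.26 apart. Thus both probe sets were measured well above the floor in both regions, on arrays where Ucp1 was at the floor in one region.

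Ppargc1a encodes the coactivator PGC-1alpha, which drives mitochondrial genes in brown fat and in oxidative muscle fibres. It had 5 probe sets, all far above the floor on each array. The probe set with the highest mean, 1460336_at, had intensities of 24862 and 37264 on the synaptic arrays and 32942 and 44859 on the non-synaptic arrays, and the difference was -0.34 ± 0.27 (SE). The 5 differences ran from -0.34 to -0.03 and none passed (limma adjusted p = 1 each). In 1437751_at, at 26413 and 25434 against 32446 and 28635, and in 1456395_at, at 9872 and 13463 against 14049 and 14563, the regions did not overlap. In the other 3 they did, and in 1434099_at and 1434100_x_at the replicate 2 arrays of both regions were nearly level, at 15147 against 15459 and 18743 against 18690. The order of the replicates was not the same in all probe sets: replicate 1 was the higher array of each region in 3 of them and the lower one in 2.

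Prdm16 encodes a zinc finger regulator of brown fat identity. Of its 4 probe sets 3 were in the fit, and the fourth, 1440745_at, was below the filter with intensities of 308 and 124 on the synaptic arrays and 249 and 68.6 on the non-synaptic arrays. The probe set with the highest mean, 1440870_at, was at 1492 and 1720 in the synaptic region and 1210 and 1809 in the non-synaptic region, with a difference of 0.12 ± 0.30 (SE) and overlapping regions. The other pair pointed in opposite directions with the regions apart, at 0.27 ± 0.32 for 1429308_at and -0.41 ± 0.39 for 1429309_at. None of the 3 passed (limma adjusted p = 1 each), and the disagreement between probe sets was as large as any difference between the regions.

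Dio2 encodes the deiodinase that activates thyroid hormone, and its 3 probe sets also disagreed. In 1418937_at the intensities were 739 and 916 on the synaptic arrays and 623 and 609 on the non-synaptic arrays, with the regions apart and a difference of 0.42 ± 0.31 (SE). In 1418938_at they were 609 and 1095 against 986 and 862, and in 1426081_a_at they were 328 and 615 against 923 and 330. Both of these overlapped, with differences of -0.17 ± 0.38 and -0.30 ± 0.64 (SE), and both changed sign without replicate 1 of the synaptic region. None of the 3 passed (limma adjusted p = 1 each).

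**Figure D2:**
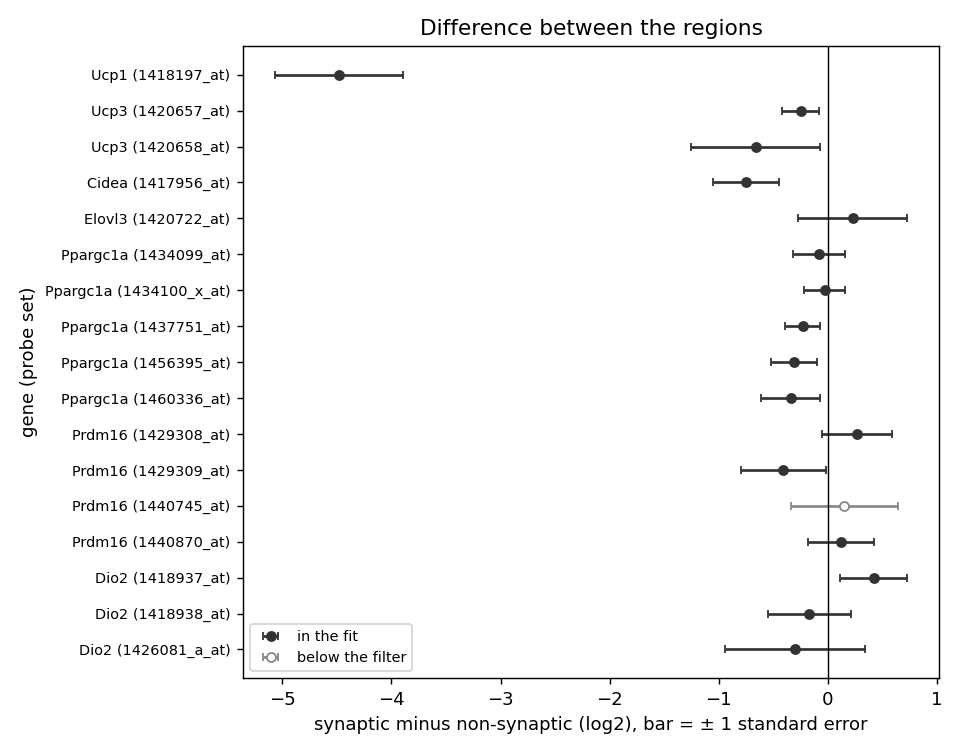
Difference between the regions for each of the 17 thermogenic probe sets, synaptic minus non-synaptic on the log2 scale, with bars of 1 standard error of the moderated fit (n = 2 arrays per region); the open mark is the probe set below the filter. Ucp1, at -4.48, is a lower bound on the size of its difference because its synaptic arrays are at the floor, and the next most negative value is that of Cidea at -0.75.

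The genes outside the list whose profile over the 4 arrays was nearest to that of Ucp1 were sought among 13900 genes, by the Euclidean distance between log2 profiles each centred on its own mean. The 8 nearest were Adipoq, Pck1, Hp, Retn, Cdo1, Apoc1, Cytl1 and Rab11fip4, at distances from 1.35 to 2.80. All of them had both synaptic arrays below both others, which follows from choosing them by likeness to Ucp1 and is no separate result. Pearson's r with Ucp1 ran from 0.863 for Retn to 0.984 for Cdo1. It is high through the same choice and is a description over 4 arrays, which share their scaling.

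Adipoq was the nearest, at a distance of 1.35, with intensities of 186 and 189 on the synaptic arrays against 9045 and 7243. Its synaptic mean log2 was 7.55, so it passed the filter through its non-synaptic arrays. It fell in the synaptic region (limma adjusted p = 0.0326). This call, like that of the myelin gene Mbp, ended when either non-synaptic array was left out, without a filter and without an intensity trend, settings in which 0 probe sets passed. Pck1, at 18.5 and 35 against 2656 and 3053, was at least 17.9-fold lower there and did not pass (limma adjusted p = 0.0963). That bound is from probe set 1423439_at. Another, 1439617_s_at, at 356 and 336 against 644 and 1201, was above the floor in both regions and differed by -1.35 ± 0.43 (SE, limma adjusted p = 1). The remaining one, 1455209_at, was at the floor on all 4 arrays. Retn, the fat cell hormone resistin, was at 212 and 718 against 2235 and 2402 and did not pass (limma adjusted p = 1). The remaining 5 had differences from -2.80 for Hp, which encodes haptoglobin, to -1.88 for Rab11fip4, and none of these passed. Apoc1, an apolipoprotein gene, was below the filter and so was not in the fit. The arrays of these genes within the non-synaptic region lay closer together than those of Ucp1 did.

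**Figure D3:**
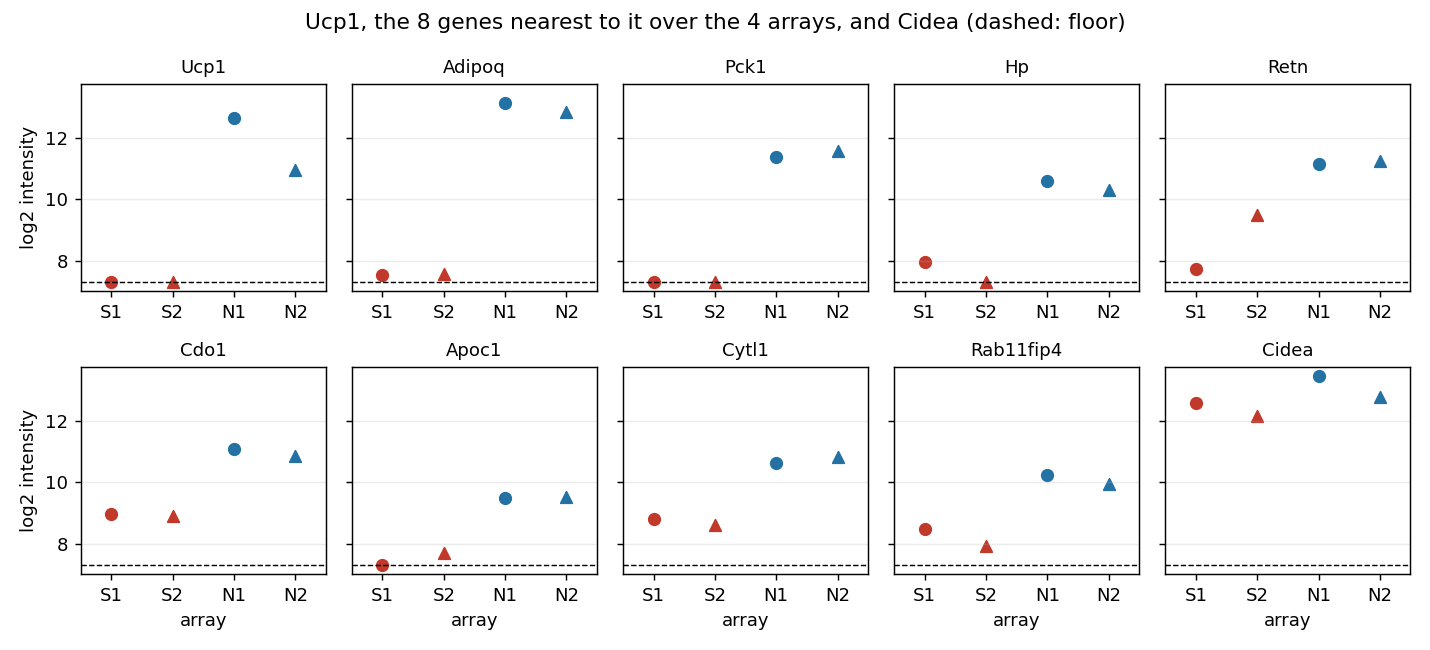
Log2 intensity on each array (S1 and S2 synaptic, N1 and N2 non-synaptic replicates 1 and 2) for Ucp1, the 8 genes with the nearest profile, and Cidea for comparison; the dashed line is the floor. Ucp1 is at 12.63 and 10.96 on its non-synaptic arrays, where Adipoq is at 13.14 and 12.82, and Cidea is far above the floor on all 4 arrays.

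Some general markers of fat cells were low on the same arrays as Ucp1. Of 23 adipocyte markers 21 had probe sets and 19 were in the fit. Of these 1 fell, Adipoq, and 0 rose, with 5 lower and 0 higher at an unadjusted limma p under 0.05, where 0.332% of all probe sets tested were lower and 0.653% higher. Both synaptic arrays lay below both others for 7 of the 19, against 9.98% of all. Adipoq, Pck1 and Retn are in both counts, with synaptic mean log2 values of 7.55, 7.31 and 8.61. These are under the filter, which they passed through their non-synaptic arrays, and both synaptic values of Pck1 were set to the floor. The counts are thus fixed in part by the filter and support nothing here. The median was -0.20, against -0.01 over all probe sets. Their summed intensity was 512475 to 655440 in the synaptic region and 608667 to 664483 in the non-synaptic region, and 2 members, Lep and Pck1, were at the floor on both synaptic arrays in the probe set with the highest mean. Lep, which encodes leptin, was below the filter, at 25.8 and 44.6 in the synaptic region against 74.5 and 279, and was under the floor on 1 non-synaptic array too. The largest shares of the sum came from Lpl and Fabp4, which muscle or vessel cells also express. Lpl, lipoprotein lipase, differed by 0.05 ± 0.15 and Fabp4, a fatty acid binding protein, by -0.12 ± 0.13 (SE). Among smaller terms the regions overlapped in Pparg, Adig, Fasn and Lipe. Their differences were -0.26 ± 0.30, -0.34 ± 0.35, 0.01 ± 0.28 and -0.20 ± 0.44 (SE). The desaturase Scd1 differed by -1.50 ± 0.24 and did not pass (limma adjusted p = 0.825). The part of fat cell number in the Ucp1 difference was not tested.

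The list of other brown and beige fat genes had no member with a difference near that of Ucp1. Of 27 listed genes 25 had probe sets and 14 were in the fit, 0 were called in either direction by limma, and at an unadjusted limma p under 0.05 there were 0 higher and 1 lower, where 0.653% and 0.332% of all probe sets tested were. The median was -0.14. The 1 lower gene was Slc36a2, an amino acid transporter used as a brown fat surface marker, at 1034 and 1119 against 1843 and 1588, with a difference of -0.67 ± 0.24 (SE, limma adjusted p = 1). Bmp7, a growth factor that promotes brown fat, differed by -0.84 ± 0.40, and Epsti1 by 0.54 ± 0.56 with overlapping regions. Larger differences lay below the filter, in both directions and with the regions apart, and are named after their values were seen. In the fit without a filter S100b, also listed as a Schwann cell marker, differed by 1.60 ± 0.35. Mpzl2 differed by 0.93 ± 0.38 and Slc27a2 by -0.94 ± 0.29 (SE). Cox8b, a subunit of cytochrome c oxidase, and Fabp3, both also abundant in muscle, differed by 0.07 ± 0.14 and 0.00 ± 0.13 (SE).

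Of 34 transcription regulators of the thermogenic program 32 were in the fit, with Prdm16 and Ppargc1a, already described above, among them. None was called in either direction by limma, and at an unadjusted limma p under 0.05 there were 0 higher and 1 lower, beside 0.653% and 0.332% of all probe sets, with a median of -0.05. The lower one was Cebpa, a factor of fat cell differentiation, at 1135 and 1524 in the synaptic region and 3017 and 2442 in the non-synaptic region, a difference of -1.04 ± 0.27 (SE, limma adjusted p = 1). Its relative Cebpb differed by 0.03 ± 0.20 and Ebf1, a regulator of fat cell fate, by -0.38 ± 0.29.

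Upstream of Ucp1, 16 of 19 genes of adrenergic and cyclic AMP signalling had probe sets, all of them in the fit, with a median of -0.02 and 0 called in either direction by limma. At an unadjusted limma p under 0.05 there was 1 higher, Prkar1a, and 1 lower, Prkar2b, beside 0.653% and 0.332% of all probe sets. Prkar2b, the regulatory subunit of protein kinase A known as the main one of fat cells, was at 252 and 409 against 1016 and 925, a difference of -1.59 ± 0.39 (SE, limma adjusted p = 1). Its synaptic mean log2 of 8.33 was under the filter, which it passed through its non-synaptic arrays. Its count as lower therefore supports nothing here. Prkar1a, another regulatory subunit, was at 36069 and 50675 against 18486 and 23890, a difference of 1.02 ± 0.24 (SE, limma adjusted p = 1). The regions did not overlap in either, and the signs were opposite. Crtc3, a coactivator of cyclic AMP responses, differed by -0.40 ± 0.19, the G protein subunit gene Gnas by 0.05 ± 0.14 and the catalytic subunit Prkaca by 0.14 ± 0.27.

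In the list of thyroid hormone activation and response, 5 of 11 genes were in the fit, Dio2 among them. The median was -0.13, and 0 were called by limma in either direction. At an unadjusted limma p under 0.05 there was 1 lower, beside 0.332% of all probe sets, and it was Thrsp, a thyroid-responsive gene of fat synthesis, at 6823 and 6165 against 9559 and 10189, a difference of -0.61 ± 0.18 (SE, limma adjusted p = 1). The receptor gene Thra differed by 0.19 ± 0.46.

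The relatives of the thermogenic genes did not pass either. Of 15 mitochondrial carriers related to the uncoupling proteins, 12 were in the fit with differences from -0.20 to 0.15 and a median of -0.08. Slc25a4, the main ATP and ADP exchanger of muscle, differed by -0.06 ± 0.13 and the phosphate carrier Slc25a3 by 0.01 ± 0.14. Slc25a20, the carnitine carrier, differed by 0.14 ± 0.20, Slc25a11 by -0.15 ± 0.23 and Slc25a30 by -0.16 ± 0.26. Of 10 relatives of Elovl3 and Cidea, 7 were in the fit with a median of 0.10. Elovl7, another elongase, had the opposite sign to Ucp1, at 1235 and 1277 against 533 and 666, a difference of 1.08 ± 0.29 (SE, limma adjusted p = 1). Cideb, at 833 and 642 against 376 and 450, differed by 0.83 ± 0.35, and passed the filter through its synaptic arrays, with a non-synaptic mean log2 of 8.68. Dffb, Elovl5 and Dffa differed by -0.35 ± 0.37, 0.01 ± 0.24 and -0.05 ± 0.19. In these lists 0 were called by limma in either direction, and Elovl7 was the 1 gene at an unadjusted limma p under 0.05, where 0.653% of all probe sets were higher. Cidec, a lipid droplet gene of fat cells and the close relative of Cidea, was below the filter and not in the fit, and it is named after its values were seen. Cidec had the same sign as Cidea and Ucp1 and the opposite sign to Elovl7 and Cideb. It was at 64.6 and 253 on the synaptic arrays against 655 and 575, a difference of -1.61 ± 0.32 (SE, from the fit without a filter), with the lower synaptic value raised to the floor.

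Heat-related genes of muscle itself had small differences. All 6 genes of calcium cycling were in the fit, with differences from -0.12 to 0.10. Sln encodes sarcolipin, which uncouples the calcium pump from transport, and differed by -0.01 ± 0.15, and the pump Atp2a1 differed by 0.05 ± 0.14. The calcium release channel Ryr1 differed by 0.10 ± 0.19 and Pln, the relative of sarcolipin, by -0.12 ± 0.27. Of 13 fatty acid responsive genes of muscle 11 were in the fit, Ucp3 among them, with differences from -0.36 to 0.10 and a median of -0.01. Pdk4, which limits glucose oxidation, differed by -0.01 ± 0.14, Angptl4, an inhibitor of lipoprotein lipase, by -0.36 ± 0.20, Acadm by 0.06 ± 0.14 and Acadl by -0.02 ± 0.14. By limma 0 of the genes of these lists were called, and 0 had an unadjusted limma p under 0.05.

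**Figure D4:**
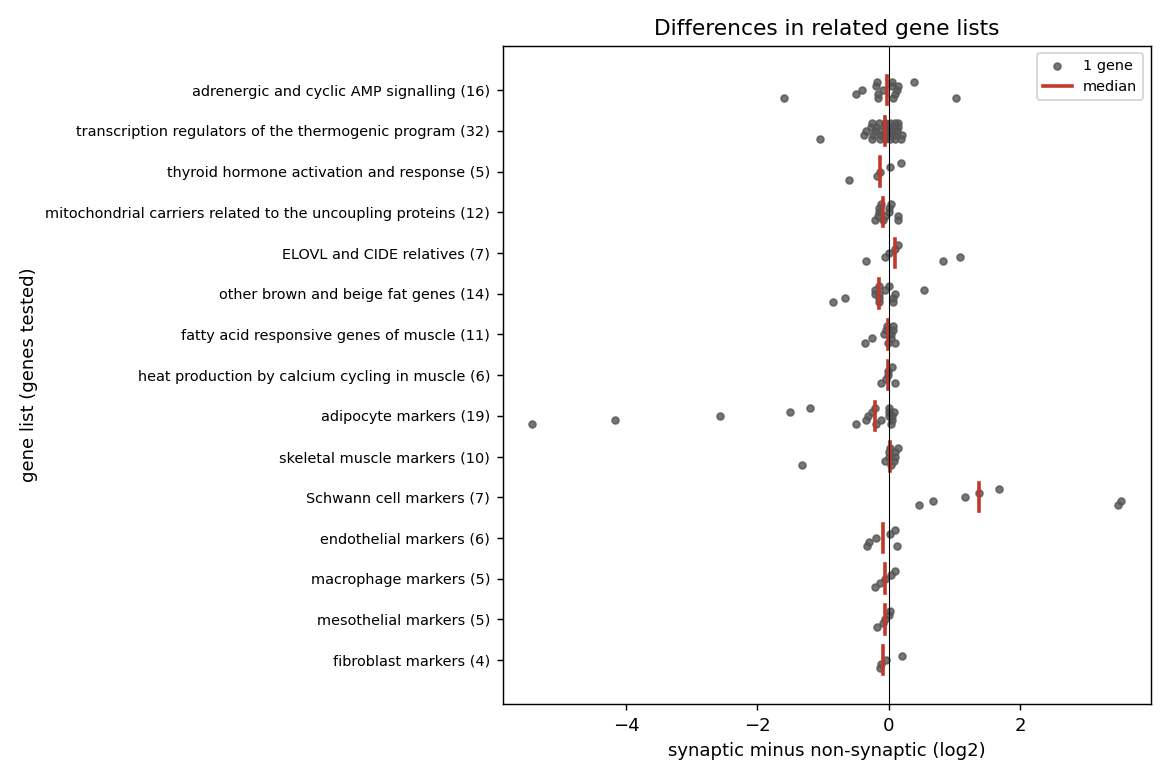
Difference between the regions for each gene of the related lists, synaptic minus non-synaptic on the log2 scale; each dot is 1 gene in the fit, read from the probe set with its highest mean, the red bar is the list's median, and the number in brackets is the count of genes in the fit. Medians lie near 0 except for Schwann cell markers at 1.37, and the adipocyte list has a tail of 5 genes from -5.43 to -1.19.

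All 10 skeletal muscle markers were in the fit, as the labelled tissue would have it, with a median of 0.02. Among them Myh4, the myosin of the fastest fibres, differed by -1.32 ± 0.18 and did not pass (limma adjusted p = 0.492), while Myh2, Myh1, Mylpf and Tnnt3 differed by 0.15 ± 0.17, 0.09 ± 0.15, 0.10 ± 0.17 and 0.03 ± 0.13. Schwann cell markers had the opposite sign to Ucp1 in all 7 genes in the fit. Both synaptic arrays lay above both others in all 7, against 9.89% of all probe sets tested. Ncmap and Egr2 had non-synaptic mean log2 values of 8.65 and 8.44, under the filter, so their sign was fixed by passing it through their synaptic arrays. Summed intensities of the list were 106015 to 115221 in the synaptic and 30704 to 32690 in the non-synaptic region. Mbp, which encodes a myelin protein, rose (limma adjusted p = 0.0326), and Ncmap, Cnp and Pmp22 had differences of 3.54 ± 0.26, 1.68 ± 0.21 and 1.16 ± 0.15 and did not pass. Medians were -0.08 for 6 endothelial, -0.06 for 5 macrophage, -0.06 for 5 mesothelial and -0.08 for 4 fibroblast markers, with 0 called by limma in any of these lists and 0 at an unadjusted limma p under 0.05. The part of these cells in the thermogenic genes' differences was not tested.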

How the data were processed

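Per the values, the authors deposited 1 intensity per probe set on a linear scale, 45101 probe sets with 64 controls. The sources used here give no scanner or summary method. The 2% trimmed mean was 2500 on each array, so the deposited scaling was kept. Values were floored at the 20th percentile and put on log2. Control probe sets and those with a mean under the 40th percentile were left out, leaving 26480. Synaptic and non-synaptic arrays were set against each other in limma 3.58.1 under R 4.3.3 (lmFit, eBayes with an intensity trend, 2-sided, Benjamini-Hochberg over all probe sets, threshold 0.05), tested on simulated data, with 2 residual degrees of freedom and a prior of 3.16.

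Members and lists were chosen with earlier results of these data known. Names came from the platform annotation, which can be old, with 34754 of 34958 single-gene probe sets updated through RefSeq. Another 932 had several genes and 9211 none listed. A gene was read from its probe set with the highest mean. Named genes are all member probe sets, up to 3 of each list by smallest unadjusted p and 2 by highest mean, the 8 nearest to Ucp1, and Adipoq, Pck1 and Mbp. Replicate numbers are read from the ends of the sample titles, which do not explain them. The alternatives cover the floor, filter, normalization, prior, threshold, replicate block and leaving out each array. Array number limits the precision.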

Additional observations from a re-analysis of the deposited data

How the results depend on the processing

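None of the thermogenic probe sets was called higher under any alternative run, and 0 were called lower except with the replicate number as a block, where 2 were: Ucp1 at -4.48 ± 0.41 (limma adjusted p = 0.000855) and Cidea at -0.75 ± 0.12 (limma adjusted p = 0.0431). Over all probe sets that replicate block gave 56 higher and 18 lower in place of 1 and 2. The numbers are not stated to pair the arrays, and arrays with the same number deviated from their group means together, with a correlation of 0.63 across probe sets. The count higher was 3 when the filter was raised to the 60th percentile, 6 with median centring, 6 at an adjusted p under 0.10, and 0 without a filter or without an intensity trend. The count lower was 1 with the floor at the 40th percentile and 0 without a filter or without an intensity trend. Leaving out each array gave 0 to 6 higher and 0 to 5 lower, 0 of both when either non-synaptic array was left out, 4 and 3 when synaptic replicate 1 was and 6 and 5 when synaptic replicate 2 was. What caused these shifts was not tested. The difference of Ucp1 ran from -5.44 with the floor at the 5th percentile to -2.92 with it at the 40th, with a lowest limma adjusted p of 0.0739, without synaptic replicate 2, apart from the block. It was below the filter when non-synaptic replicate 1 was left out or the filter was at the 60th percentile. That of Cidea ran from -1.09 without non-synaptic replicate 2 to -0.42 without non-synaptic replicate 1. Of the 17 probe sets 7 changed sign in some setting, none of them called in any. Intensities close to the floor limit the reading of Ucp1 in the synaptic region and of Prdm16, Dio2 and Elovl3.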
